A study of Homo sapiens with 6 samples.

Results

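The aminoacyl-tRNA synthetase genes were taken by symbol from a table of 15794 human genes, and 37 of those genes met the rule. Each letter of the amino acid code except E, F and P, followed by ARS with 1, 2 or no digit, was accepted. EPRS, EARS2, FARSA, FARSB, FARS2 and PARS2 were added by name. The 37 symbols that this rule can find in the naming of the table all had a row, so none was lost to a filter on low values. The rule reads symbols and no measured value, but the family was chosen with earlier results of these data known.

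An aminoacyl-tRNA synthetase joins an amino acid to the transfer RNA that carries its anticodon, so that the ribosome can place it by the genetic code. Human cells encode separate sets for translation in the cytosol and in mitochondria. Most mitochondrial enzymes carry the suffix 2, while the glycine enzyme GARS and the lysine enzyme KARS serve both compartments from a shared gene. Several cytosolic enzymes sit with scaffold proteins in the multisynthetase complex. The transcription factor ATF4, translated when amino acids run short, is known to raise many cytosolic synthetase genes together with amino acid transporters and enzymes of serine and asparagine synthesis.

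The study sequenced poly(A) RNA of eHAP, a haploid human cell line of leukaemic origin, in 2 groups of 3 biological replicates. In the first group Cas9-expressing cells had received guide RNAs against TFDP1, which encodes DP1, the DNA-binding partner of most E2F factors; the second group, the control, is labelled wild-type with no gene knocked out. The treatment text, shared by both groups, has a plasmid with guides and puromycin resistance, selection from 24 to 72 h and collection at 5 days. It does not say which guides the control received or whether cells were cloned. Drosophila S2 cells were mixed in before RNA extraction as a spike-in.

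Every value comes from the authors' deposited table of this comparison: per gene it lists the log2 fold change, the mean level over all libraries as log2 CPM (read counts scaled to library size), the likelihood ratio and raw and adjusted p. Replicate values were not analysed here, so library depth is unknown and none can be printed per sample. The approximate standard error given below was obtained by dividing the absolute log2 fold change by the root of its likelihood ratio, and it carries the replicate spread as the authors' model estimated it. TFDP1 itself had a log2 fold change of 1.17 at 226 CPM in the authors' deposited table (adjusted p = 1.08e-283). The table does not name the numerator of its fold changes. A gene is therefore called positive when its transcript was higher in whichever group had more TFDP1 transcript, and negative when lower there, at an adjusted p under 0.05 by the authors' edgeR likelihood ratio test. Whether that group is the knockout or the control was not settled. In bulk RNA, a smaller share of cells with a transcript and less of it per cell cannot be told apart.

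Of cell type markers, 4 of 8 blood genes had a row in the authors' deposited table, at 0.177 to 15.3 CPM. ITGA2B was positive at 0.49 and KIT negative at -0.98, and the other 2 were not called. PTPRC, HBG1 and SPI1 were among those with no row. Of 6 fibroblast and 5 epithelial markers 3 each had a row, at 2.97 to 59.0 CPM and 0.515 to 40.0 CPM, and all were negative. Log2 fold changes ran from -3.47 in SPARC to -0.28 in COL1A1 for fibroblast markers. Those of epithelial markers ran from -4.18 in EPCAM to -0.52 in KRT18, with KRT8 at -2.94. The part of these markers in the synthetase values was not tested.

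Synthetase genes differed between the groups by small amounts, and calls in the cytosolic and dual set were mostly positive. Of the 37 genes 14 were positive, 8 negative and 15 not called in the authors' deposited table, so that 59.5% were called. Over all genes 39.5% were called, 17.3% positive and 22.2% negative. Among genes no scarcer than the median gene (23.5 CPM), which 34 of the 37 synthetase genes are, the share was 51.9%, with 25.4% positive and 26.5% negative. Among the 20 cytosolic and dual genes 12 were positive and 3 negative, and the median log2 fold change was 0.13. Among the 17 mitochondrial genes 2 were positive and 5 negative, with a median of -0.06; their share called, 41.2%, is near that of all genes and below the 49.5% of genes in their level range. The median over all genes was -0.03. No synthetase gene reached 1.5-fold: the called changes ran from 1.09-fold to 1.39-fold, with a median of 1.17-fold.

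**Figure D1:**
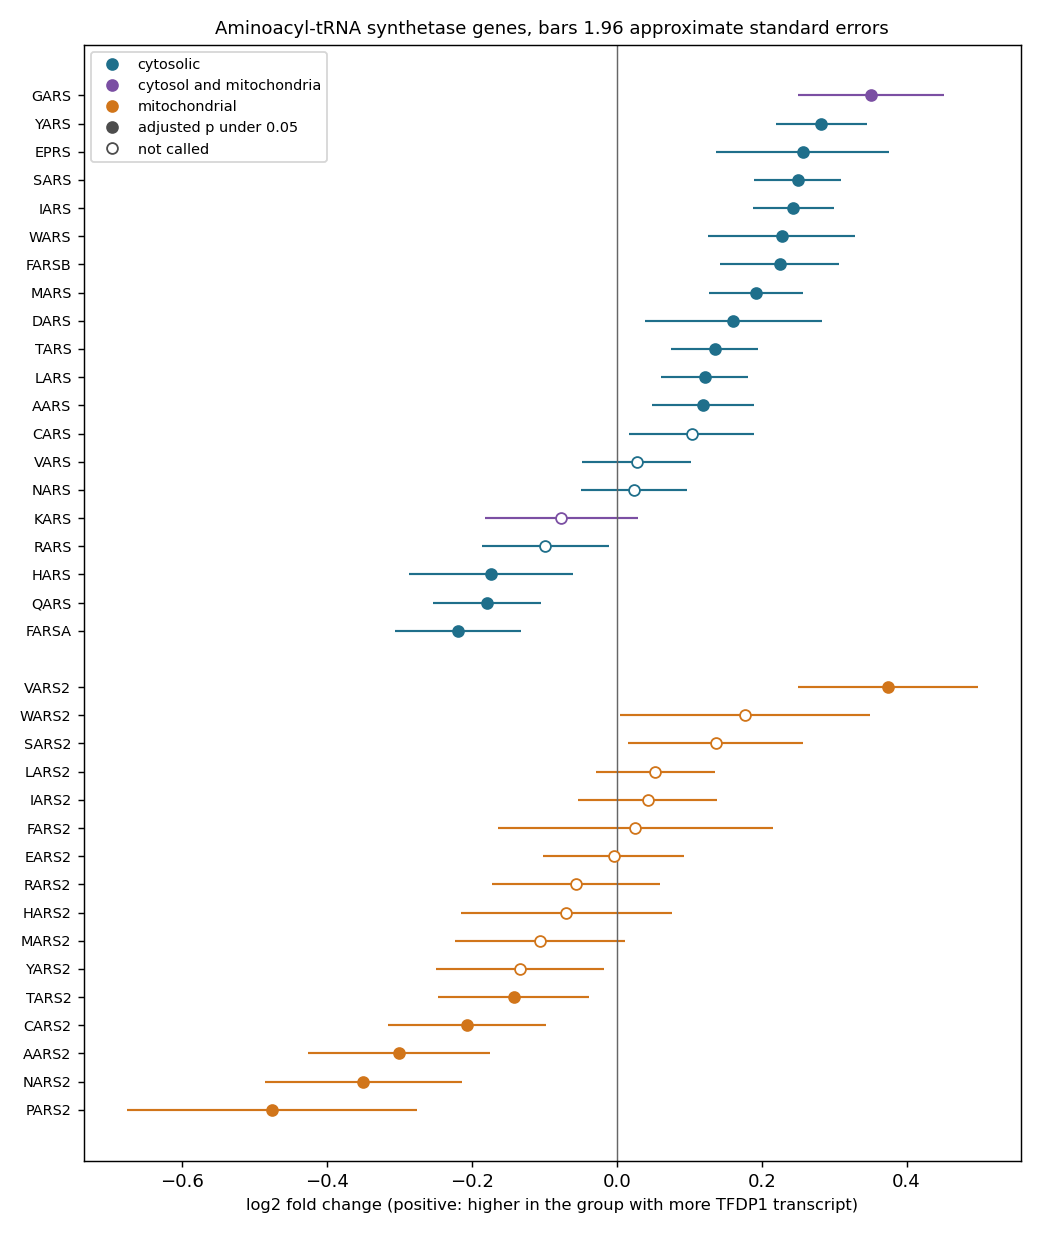
Log2 fold change of 36 synthetase genes in the authors' deposited table, cytosolic and dual genes above and mitochondrial genes below, each sorted by value. Points are genes, filled where the adjusted p is under 0.05; bars are 1.96 approximate standard errors. The cytosolic and dual genes run from 0.35 to -0.22 and the mitochondrial genes from 0.37 to -0.48.

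The split of calls depended on how the fold changes were centred. Fold changes were set relative to the ribosomal protein median of -0.08, and p was recomputed from the approximate standard error. The 37 genes then gave 21 positive and 5 negative calls. Of the called genes of any kind, 62.5% were then positive, against 43.9% of those called as deposited. Only 7 synthetase genes, 4 positive and 3 negative, combined a call with a change of at least 1.2-fold. Among these were GARS, YARS and VARS2 on the positive side, and NARS2, AARS2 and PARS2 on the negative side.

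Stretches of promoters are shown first, because ATF4 and the E2F factors are known to act through short DNA motifs near gene starts. RefSeq windows on GRCh38.p14, from 250 bases before to 50 after each annotated start, were matched to 30 of the 37 genes by symbol or RefSeq synonym; AARS2, DARS, LARS, VARS, VARS2 and YARS were among those not matched. Both strands were searched for TGATGNAA, the letters of the ATF4 response element, and for TTTNNCGC, a loose form of an E2F site. Any base was allowed at each N. Of the 30 genes 8 held TGATGNAA, 26.7%, against 4.46% of the 27305 genes with a window. That wider set was not limited to the 15794 measured genes and was not matched for level or base content. The shares therefore compare unlike sets, and their difference was not tested. By call in the authors' deposited table, the 8 genes were 5 of the 9 positive genes with a window, 0 of the 7 negative genes and 3 of the 14 that were not called. The 8 matches are printed on the strand of the gene with the matched letters in capitals and 10 bases on each side.
IARS (chr9:92293693-92293720, minus strand): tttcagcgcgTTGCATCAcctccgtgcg
GARS (chr7:30594835-30594862, plus strand): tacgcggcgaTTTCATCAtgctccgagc
MARS (chr12:57488054-57488081, plus strand): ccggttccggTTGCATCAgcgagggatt
TARS (chr5:33440957-33440984, plus strand): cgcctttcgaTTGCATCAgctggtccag
AARS (chr16:70289676-70289703, minus strand): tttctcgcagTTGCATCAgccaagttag
CARS (chr11:3057408-3057435, minus strand): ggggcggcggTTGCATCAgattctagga
NARS (chr18:57621805-57621832, minus strand): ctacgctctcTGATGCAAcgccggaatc
YARS2 (chr12:32756077-32756104, minus strand): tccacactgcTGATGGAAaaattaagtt

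Of these 8 genes 7 encode cytosolic or dual enzymes, and 6 of those 7 carry the same 8 letters, TTGCATCA or its reverse complement TGATGCAA. GARS has TTTCATCA instead. Counted to the first matched base, the match lay at position -13 in IARS, -33 in GARS, -4 in MARS, 3 in TARS, -2 in CARS and 15 in NARS, with 1 as the start itself, whereas it lay at -187 in AARS and -197 in YARS2. A match describes the letters only and is not a measured binding site.

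The E2F letters TTTNNCGC were held by 6 of the 30 genes, 20.0%, against 8.23% of the same wider set, again unmatched for level or base content. They were found in 4 of the 9 positive genes, 0 of the 7 negative genes and 2 of the 14 uncalled genes, and no match overlapped an ATF4 match. They are printed in the same way, since DP1 is the partner of most E2F factors. A match to so loose a pattern need not be a site that those factors read.
IARS (chr9:92293857-92293884, minus strand): ccacgtggagGCGCAAAAccagcaagca
GARS (chr7:30594505-30594532, plus strand): aaggcgcaggGCGCGAAAgaacagaaac
TARS (chr5:33440562-33440589, plus strand): cgccgaagccGCGGGAAAccctggactc
AARS (chr16:70289686-70289713, minus strand): catcccacctTTTCTCGCagttgcatca
RARS2 (chr6:87590113-87590140, minus strand): gcactcgggaTTTCCCGCgcgccctcgc
EARS2 (chr16:23557451-23557478, minus strand): gggcgtgggaTTTCGCGCtagggggcct

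The cytosolic genes with the largest values were positive. GARS (chromosome 7, positions 30594681 to 30634033 of GRCh38, plus strand, ENSG00000106105.13), which charges glycine tRNA in the cytosol and in mitochondria, had a log2 fold change of 0.35 in the authors' deposited table, or 1.28-fold, with an approximate standard error of 0.051 (adjusted p = 1.25e-10). YARS (chromosome 1, positions 32775237 to 32818153, minus strand, ENSG00000134684.10), the tyrosine enzyme, was at 0.28 with an approximate standard error of 0.032 and the smallest adjusted p of the family, 6.61e-17. GARS and YARS were the 2 cytosolic or dual genes whose change reached 1.2-fold.

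A group of 6 further positive genes, among them FARSB described below, lay between 0.19 and 0.26. The serine enzyme SARS was at 0.25 and the isoleucine enzyme IARS at 0.24 in the authors' deposited table, with adjusted p of 9.29e-15 and 3.39e-16. EPRS, a fused enzyme that charges both glutamate and proline tRNA, was at 0.26 (adjusted p = 0.000157). With length and GC trends removed IARS moved to 0.16 and EPRS to 0.16, and both kept their calls. The approximate standard error of EPRS, 0.061, was 1.42 times the median of the 200 genes nearest in level, the widest ratio of the family. The EPRS value is therefore less certain than those of SARS and IARS. The tryptophan enzyme WARS was at 0.23 and the methionine enzyme MARS at 0.19, with adjusted p of 6.89e-05 and 8.72e-08. MARS exons overlap those of ARHGAP9 and DDIT3 on the opposite strand and a microRNA over 13.3% of their length. Because the sources used here do not state whether the authors counted by strand, reads of these genes cannot be told apart there. DDIT3 was itself positive at 0.39.

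Smaller positive calls came from the threonine enzyme TARS at 0.14, the leucine enzyme LARS at 0.12, the alanine enzyme AARS at 0.12 and the aspartate enzyme DARS at 0.16 in the authors' deposited table. Their adjusted p ran from 6.87e-05 in TARS to 0.0318 in DARS. TARS, LARS and DARS lost their call when trends of fold change on transcript length and GC content were removed, at adjusted p of 0.128, 0.737 and 0.146. The cysteine enzyme CARS, at 0.10, stood just outside the threshold (adjusted p = 0.0559). CARS was called positive under 6 alternatives, among them removal of length and GC trends (0.16, adjusted p = 0.00190) and re-centring on ribosomal protein genes (0.19, adjusted p = 0.000126). NARS and VARS, which charge asparagine and valine tRNA, were abundant and not called: NARS was at 0.02 with an approximate standard error of 0.038, and VARS at 0.03 with one of 0.038. Both gained a positive call with re-centring on ribosomal protein genes, at 0.11 each (adjusted p = 0.0134 in NARS and 0.0118 in VARS). Without length and GC trends VARS was also called, at 0.13 (adjusted p = 0.00341), whereas NARS was at -0.01.

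On the negative side of the cytosolic set were FARSA at -0.22, the glutamine enzyme QARS at -0.18 and the histidine enzyme HARS at -0.17 in the authors' deposited table, with adjusted p of 6.13e-06, 1.73e-05 and 0.0107. FARSA did not keep its call with length and GC trends removed (adjusted p = 0.172), nor HARS with re-centring on ribosomal protein genes (adjusted p = 0.206). The arginine enzyme RARS (-0.10, adjusted p = 0.0740) and KARS (-0.08, adjusted p = 0.294) were not called. RARS gained a negative call with length and GC trends removed (-0.14, adjusted p = 0.00732) and with genes scarcer than the median gene left out (adjusted p = 0.0494), and lay at -0.02 with re-centring on ribosomal protein genes. QARS kept its call under both, at -0.11 without length and GC trends and -0.10 re-centred on ribosomal protein genes. HARS and HARS2 lie head to head on chromosome 5 with overlapping gene models, and HARS2 was at -0.07 without a call.

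The subunits of phenylalanyl-tRNA synthetase went opposite ways. The cytosolic enzyme is built from an alpha subunit encoded by FARSA (chromosome 19, positions 12922479 to 12934037, minus strand) and a beta subunit encoded by FARSB (chromosome 2, positions 222570536 to 222656337, minus strand). FARSA was at -0.22 and FARSB at 0.23 in the authors' deposited table, with adjusted p of 6.13e-06 and 7.78e-07. The difference of 0.44 has an approximate standard error of 0.061 if the errors of the genes are independent, and the difference itself was not tested. With length and GC trends removed both moved towards 0. FARSA was then at -0.08 without a call, and FARSB at 0.16 with its call kept (adjusted p = 0.000821).

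Members of the multisynthetase complex differed in sign. Of its 8 enzyme genes EPRS, IARS, LARS, MARS and DARS were positive, QARS was negative, and KARS and RARS were not called; the median log2 fold change was 0.14. The 12 cytosolic and dual genes outside the complex gave 7 positive and 2 negative calls and a median of 0.13. In both sets 75.0% of genes were called, against 57.3% of genes in the level range of cytosolic and dual members. The share over all genes was 39.5%. In the complex, LARS and DARS lost their calls with length and GC trends removed, and RARS gained a negative one. The scaffold genes differed as well: AIMP1 was at 0.19 and EEF1E1 at 0.32, whereas AIMP2 was at -0.23 in the authors' deposited table, with adjusted p of 0.00152, 0.00627 and 0.000368.

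The cytosolic genes known from other mammalian cells as ATF4 targets all had log2 fold changes above 0. Of the 12 genes so listed (AARS, CARS, EPRS, GARS, IARS, LARS, MARS, NARS, SARS, TARS, WARS and YARS) 10 were positive, 0 negative, and CARS and NARS were not called, at a median of 0.21 (log2 fold change) in the authors' deposited table. The other 8 cytosolic and dual genes gave 2 positive, FARSB and DARS, and 3 negative calls, with a median of -0.09. Of all genes in the level range of the cytosolic and dual set, 57.3% were called. No test was made of the difference between these lists, which were chosen with earlier results of these data known.

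Among the 17 mitochondrial genes positive calls numbered 2. VARS2 (chromosome 6, positions 30908242 to 30926459, plus strand, ENSG00000137411.17), the mitochondrial valine enzyme, had a log2 fold change of 0.37 in the authors' deposited table, or 1.30-fold, with an approximate standard error of 0.064 (adjusted p = 4.78e-08). The VARS2 value is uncertain because its exons overlap those of GTF2H4, a gene of the same strand, over 22.0% of their length. Re-centred on ribosomal protein genes, the mitochondrial set gave 6 positive and 3 negative calls.

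The negative mitochondrial calls included the lowest values of the family. PARS2 (chromosome 1, positions 54756898 to 54764514, minus strand, ENSG00000162396.5), the mitochondrial proline enzyme, was at -0.48 in the authors' deposited table, or 1.39-fold, with an approximate standard error of 0.10 (adjusted p = 2.42e-05). Its level of 13.4 CPM was the lowest of the family. The asparagine enzyme NARS2 was at -0.35 and the alanine enzyme AARS2 at -0.30, with adjusted p of 4.24e-06 and 1.99e-05. CARS2 at -0.21 (adjusted p = 0.00113) and TARS2 at -0.14 (adjusted p = 0.0252) lost their calls both with re-centring on ribosomal protein genes (adjusted p = 0.0604 and 0.386) and with length and GC trends removed (0.176 and 0.287).

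The other 10 mitochondrial genes were not called. YARS2 at -0.13 (adjusted p = 0.0678) and SARS2 at 0.14 (adjusted p = 0.0724) lay nearest to the threshold in the authors' deposited table. SARS2 shares 57.0% of its exon length with AC011455.2 on the same strand and MRPS12 on the opposite strand, so its value is uncertain. It was called positive at 0.29 with length and GC trends removed (adjusted p = 1.91e-05), at 0.22 with re-centring on ribosomal protein genes (adjusted p = 0.00138), with re-centring on the median gene (adjusted p = 0.0236) and with genes scarcer than the median gene left out (adjusted p = 0.0483). In the last of these YARS2 was called as well (adjusted p = 0.0451). WARS2 was at 0.18 with an adjusted p of 0.111, LARS2 at 0.05, IARS2 at 0.04, FARS2 at 0.03, RARS2 at -0.06 and MARS2 at -0.11. Re-centred on ribosomal protein genes WARS2, LARS2 and IARS2 gained positive calls, at 0.26, 0.14 and 0.13 (adjusted p = 0.00967, 0.00403 and 0.0269). EARS2, the mitochondrial glutamate enzyme, had a log2 fold change of -0.0044 with an approximate standard error of 0.049, the value nearest to 0.

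Cytosolic genes were set against the mitochondrial gene for the same amino acid in 17 pairs, which do not cover every amino acid with separate genes. In 13 of these 17 pairs the cytosolic gene had the higher log2 fold change, and the median difference was 0.20. EPRS and FARS2 each stand in 2 of these pairs. The widest difference was that of the proline enzymes, EPRS at 0.26 and PARS2 at -0.48 in the authors' deposited table, at 0.73 with an approximate standard error of 0.12. Alanine (AARS and AARS2) followed at 0.42 with one of 0.073, tyrosine (YARS and YARS2) also at 0.42 with one of 0.068, and asparagine (NARS and NARS2) at 0.37 with one of 0.079. Both genes were called, with opposite signs, for alanine, proline and threonine.

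The order was turned for 4 of the 17 pairs, which were valine, phenylalanine by its alpha subunit, histidine and arginine. For valine the difference was -0.35 with an approximate standard error of 0.074, from VARS at 0.03 and VARS2 at 0.37. The histidine and arginine differences, -0.10 and -0.04, were within 1.96 of their approximate standard errors. Among pairs with the cytosolic gene higher, 4 differences were also within that limit. They were phenylalanine by its beta subunit at 0.20, serine at 0.11, leucine at 0.07 and tryptophan at 0.05. These differences are descriptions, and none was tested.

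**Figure D2:**
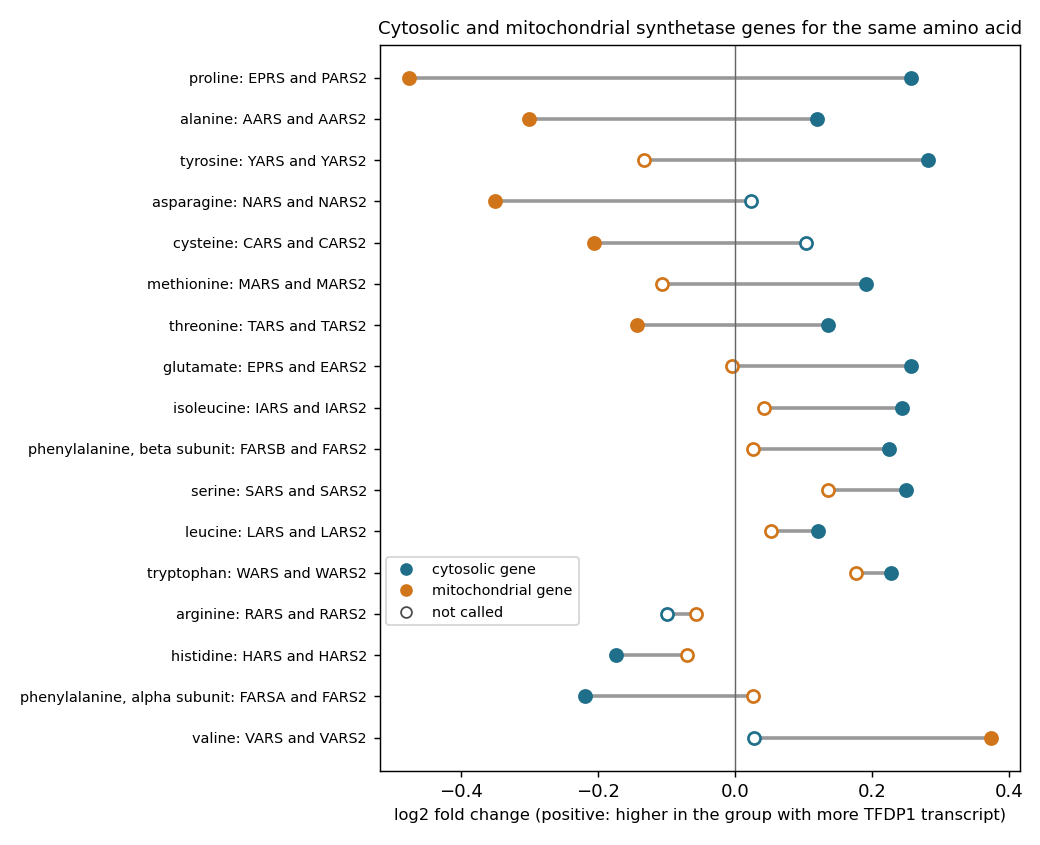
Log2 fold change of the cytosolic and the mitochondrial gene for the same amino acid in the authors' deposited table, sorted by the difference between them. Filled points have an adjusted p under 0.05. The cytosolic gene lies to the right in 13 of 17 pairs, from proline with the widest difference, 0.73, to valine with -0.35.

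Levels differed by compartment as well. Per kilobase of the longest coding transcript in GENCODE 29, the mean level of the cytosolic gene was above that of its mitochondrial partner in 17 of 17 pairs, by 1.38 to 13.1 times with a median of 5.20 times. GARS stood highest at 142 CPM per kilobase, next to SARS at 141, and KARS, FARSA, MARS and YARS lay between 118 and 119. The lowest were PARS2 at 5.73, WARS2 at 7.46 and FARS2 at 9.08 CPM per kilobase. These are means over both groups, and the transcript that was expressed may be shorter than the longest one. The closest pair in level was CARS and CARS2, at 42.6 and 30.9 CPM per kilobase. The median approximate standard error was 0.040 in the cytosolic and dual set and 0.060 in the mitochondrial set.

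**Figure D3:**
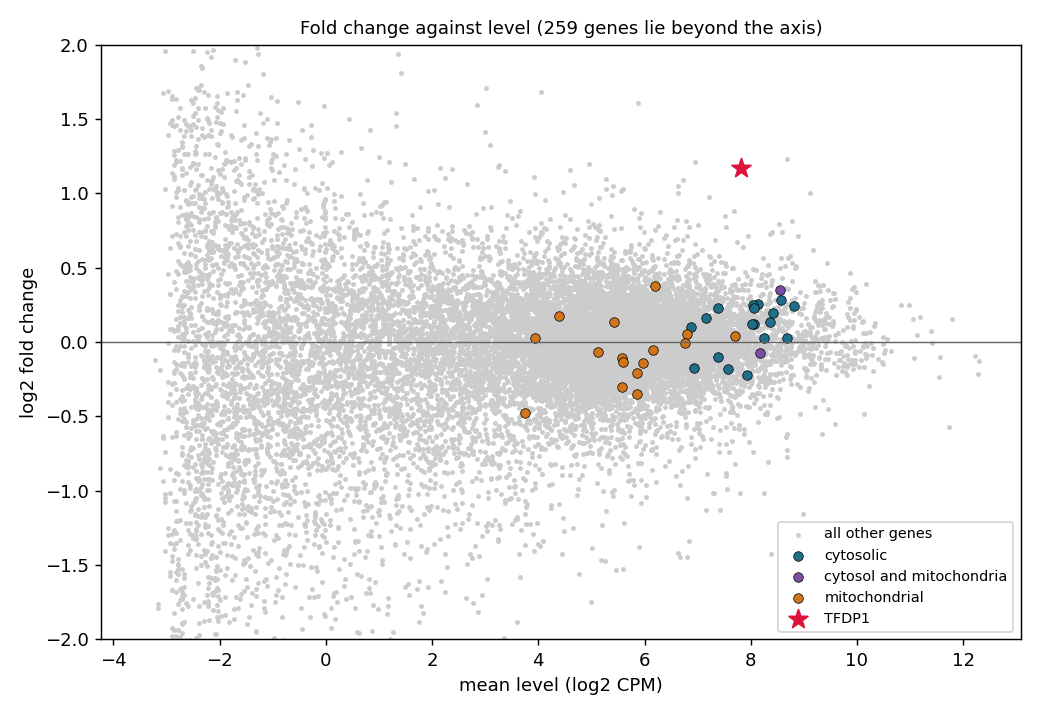
Log2 fold change against mean level in log2 CPM for all genes of the authors' deposited table (grey), with 36 synthetase genes coloured by compartment and TFDP1 as a star. The vertical axis stops at 2 in either direction, which leaves 259 genes outside. The 36 synthetase genes lie between -0.48 and 0.37, far below TFDP1 at 1.17.

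Other genes of tRNA biology were called on both sides. In the 24 genes of tRNA processing and export 3 were positive and 2 negative in the authors' deposited table. XPOT, the export receptor of tRNA, was at 0.44 (adjusted p = 1.02e-31), and TSEN15, a subunit of the tRNA splicing endonuclease, at 0.47 (adjusted p = 1.32e-21). LAGE3, a subunit of a tRNA-modifying complex, was at -0.30 (adjusted p = 2.88e-08). The list's median was -0.01, and 20.8% of its genes were called, against 39.5% of all genes.

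Of 63 tRNA modification genes 11 were positive and 7 negative, 28.6% in all, against 39.5% of all genes. The median log2 fold change was 0.01. TRMT10A, a tRNA guanine methyltransferase, was at 0.62, CDKAL1, which modifies an adenosine beside the anticodon of lysine tRNA, at 0.48, and DUS3L, a dihydrouridine synthase, at 0.21 in the authors' deposited table, with adjusted p of at most 6.67e-06. The 21 genes of RNA polymerase III and its factors, which transcribe tRNA genes, gave 4 positive and 5 negative calls. Their share called was 42.9%, near the 39.5% of all genes. Subunits of the same factor differed in sign there: GTF3C1 was at -0.28 and GTF3C5 at 0.21, both subunits of TFIIIC, and the polymerase's largest subunit POLR3A was at -0.21.

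Relatives of the synthetases were called in 2 of 7 genes, both negative, or 28.6% against 39.5% of all genes. TARSL2, a further threonyl-tRNA synthetase gene outside the naming rule, was at -0.42 (adjusted p = 1.22e-05) and DTD2, which removes wrongly attached amino acids from tRNA, at -0.26 (adjusted p = 0.00258) in the authors' deposited table. Among 6 genes of indirect aminoacylation, QRSL1, a subunit of the enzyme that completes mitochondrial glutamine tRNA, was at 0.30 (adjusted p = 1.12e-05). MTFMT, which formylates the mitochondrial initiator tRNA, was at -0.37 (adjusted p = 3.51e-05). The 4 remaining genes of indirect aminoacylation were not called, so that 33.3% of that list was called.

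The amino acid response list had larger values. Of its 25 genes 19 were positive, 3 negative and 3 not called, at a median of 0.43 (log2 fold change) in the authors' deposited table; 88.0% were called, against 39.5% of all genes. ATF4 was at 0.43 with an approximate standard error of 0.051 (adjusted p = 6.27e-16), and its partner CEBPG at 0.62 (adjusted p = 2.22e-36). The cystine transporter gene SLC7A11 at 1.21 and asparagine synthetase ASNS at 0.88 exceeded every tRNA synthetase gene. The 3 negative genes were VLDLR, a lipoprotein receptor, at -0.77 (adjusted p = 1.02e-18), the stress-induced transcription factor ATF3 at -0.53 (adjusted p = 5.63e-07), and EIF2AK4, which encodes the kinase GCN2 that senses uncharged tRNA, at -0.14 (adjusted p = 0.00540).

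**Figure D4:**
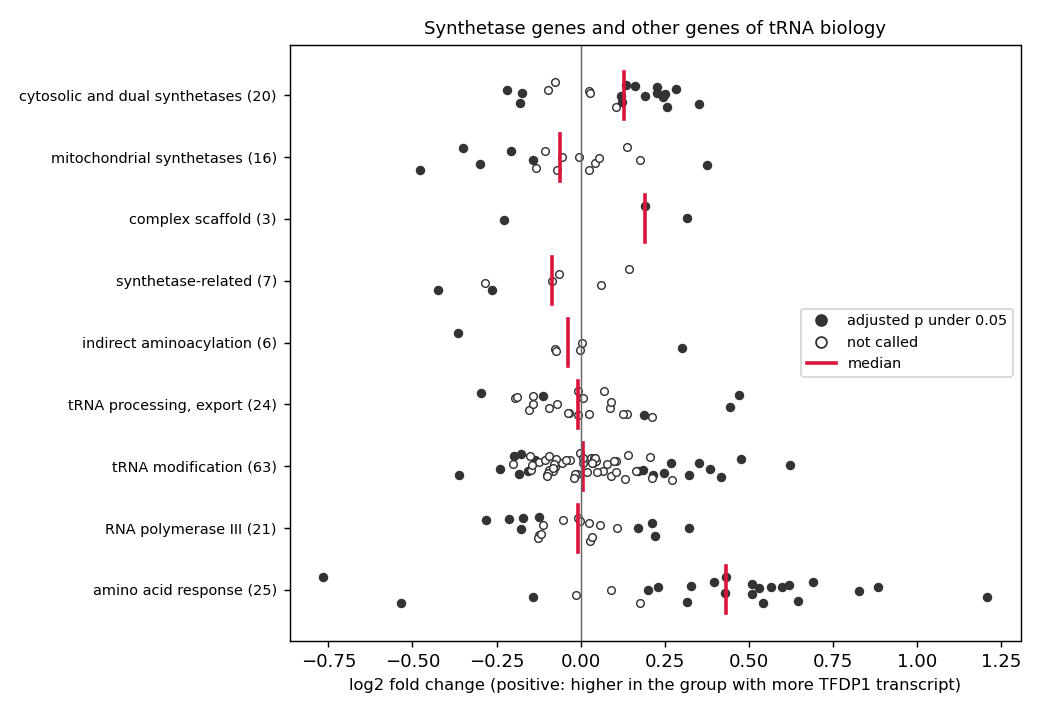
Log2 fold change of each gene in the authors' deposited table, by list, with the number of genes per list in brackets, filled points for an adjusted p under 0.05 and a red bar at the median. The medians of the cytosolic and dual synthetases (0.13) and the amino acid response (0.43) lie right of 0, and that of the mitochondrial synthetases lies at -0.06.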

How the data were processed

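Poly(A) RNA of 3 TFDP1 knockout and 3 control samples was sequenced, and Trimmomatic, HISAT2, featureCounts and edgeR with the builds hg38 and dm6 are named in the submitters' processing notes, without versions. The authors deposited a log2 fold change and a mean log2 CPM per gene, and the sources used here do not state how libraries were scaled. The p-value columns, raw and adjusted, are the authors' deposited values, as is the likelihood ratio, a score per gene. Depth per sample is unknown. Calls use the deposited adjusted p under 0.05; no test across samples was made. Since the file holds one comparison and no counts, the design's form for such a table was used. The members and lists were chosen with earlier results of these data known. Of the members 36 were named; 1 mitochondrial gene enters the totals but is not reported singly or in a pair here, so counts over pairs are incomplete. Of each other list the 3 called genes with the smallest p were named, plus TFDP1 and ATF4; DDIT3, EIF2AK4, VLDLR, ATF3 and genes that overlap a member were named after their values were seen. Re-centring and removal of length and GC trends (lowess with a span of 0.3) used p from the approximate standard error. So did 1 alternative with unchanged centring, and the rest used the deposited p. A simulation covered only re-centring on the median gene. Its noise was drawn from the same standard errors, so it cannot judge them. Re-centring on ribosomal protein genes and removal of length and GC trends were not simulated. GENCODE 29 on GRCh38 gave positions, exon overlaps and transcript lengths; symbols matched for 37 of 37 members and 93.6% of genes. Tools were Python 3.11.15, pandas 2.3.3, numpy 2.4.6, scipy 1.17.1, statsmodels 0.14.6 and matplotlib 3.10.9.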

Additional observations from a re-analysis of the deposited data

How the results depend on the processing

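With a change of at least 1.2-fold also required, 7 synthetase genes were called, 4 positive and 3 negative; 2 of these were cytosolic or dual, 2 positive and 0 negative, and 3 mitochondrial genes were negative. Re-centring on the median ribosomal protein gene left 5 negative calls in the family, with 6 positive and 3 negative mitochondrial calls. Removing length and GC trends left 3 negative mitochondrial calls. Uncalled genes changed sign with re-centring on ribosomal protein genes, KARS to 0.0064, RARS2 to 0.026, HARS2 to 0.013 and EARS2 to 0.078. EARS2 also moved to 0.021 with re-centring on the median gene, and IARS2 to -0.0104 and NARS to -0.0103 with length and GC trends removed. For each of these changes the cause was not tested. The counts under an adjusted p of 0.01, adjustment over the rows of the table, p from the approximate standard error (chosen after seeing the data), re-centring on the median gene, genes at or above the median level, and omission of EPRS, FARSA and FARSB stayed within 1.5 times those reported, from 19 to 25 for the family. No paired analysis was possible because the table holds no values per sample, and leaving out replicates was not run for the same reason. What depth limits is unknown without counts; the approximate standard error was 0.10 in PARS2, the scarcest member, and 0.028 in IARS.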

Other observations

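Synthetases fall into 2 structural classes with unrelated catalytic folds. Class I genes gave 6 positive and 2 negative calls of 18 in the authors' deposited table, and class II genes 7 positive and 6 negative calls of 18; EPRS, a fusion of both classes, is counted in neither. Over all genes 17.3% were positive and 22.2% negative. The medians were 0.05 for class I and 0.02 for class II, and no test was made between them.

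The approximate standard errors of the family ran from 0.661 to 1.42 times the median of the 200 genes nearest in level, with a median ratio of 0.917. IARS had the narrowest and EPRS the widest. KARS and DARS also had wide errors, at 1.26 and 1.27 times their neighbours.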
